A study of Mus musculus with 3 samples.

Results

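CD4-like T cells of mouse blood are described here in 4 blood samples that were profiled for RNA and surface antibodies in the same single cells. The cells were chosen by the authors' cluster and by RNA: they lay in the T cell cluster of their blood table, had at least 2 of the 3 genes Cd3d, Cd3e and Cd3g above 0, and had no count of Cd8a, Cd8b1, Ncr1 or Cd79a. They were also required to be clear cells, meaning that their barcode occurred in 1 table only and that at least 0.5 of their hashtag counts came from the hashtags of their own table. The rule found 261 cells among 7713 clear blood cells, of 11063 clear cells in the whole series. Naive blood gave 55 of them in the Het and 107 in the Hom sample, and metastasis-bearing blood gave 43 in the Het and 56 in the Hom sample.

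The mice were females of 2 to 3 months on a C57Bl/6 background, of the genotypes Cx3cr1+/-, Cx3cr1-/-, CCR2+/- or CCR2-/-. The labels of the blood samples give Het or Hom without saying which of the 2 genes is meant, and they do not say whether a sample came from 1 animal or several. Metastasis-bearing mice had received E0771 cells, a mouse mammary carcinoma line, by carotid injection about 2 weeks earlier. Whole blood was freed of red cells by lysis, each sample was stained with a pool of 35 antibodies and then with its own hashing antibody, and all 8 samples of the study were loaded together as a single 10x library. Each blood group was therefore 1 hashed sample, no test between groups was possible, and the intervals given below are exact 95% intervals that cover counting error only.

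CD4 T cells, or helper T cells, recognise peptides on MHC class II with an alpha beta T cell receptor and direct other immune cells through cytokines and CD40 ligand. In blood most of them are naive cells that move between lymph nodes, carry CCR7, and depend on the transcription factors LEF1 and TCF7. Cells that have met antigen lose part of this programme and take up adhesion molecules, S100 proteins and tissue-homing receptors such as CXCR6. A smaller set, the regulatory T cells, is marked by FOXP3, while gamma delta T cells use other receptor chains and mostly lack both CD4 and CD8.

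The antibody readout was not used by the rule, so its tags and the hashtags are shown first. Each tag is a run of 15 bases carried by an antibody and read with the RNA. The capitals mark the whole tag, and any 2 of the 43 tags differed at 5 or more bases. The tags that place a cell in the T cell gates read as follows.
CD3: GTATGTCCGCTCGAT
CD4: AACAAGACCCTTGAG
CD8a: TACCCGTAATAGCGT
CD45R/B220: CCTACACCTCATAAT

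The hashtags that assign a cell to its blood sample read as follows, with M-HTO-5 and M-HTO-7 for the naive Het and Hom samples and M-HTO-6 and M-HTO-8 for the metastasis-bearing ones.
M-HTO-5: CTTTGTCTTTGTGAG
M-HTO-6: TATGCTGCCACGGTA
M-HTO-7: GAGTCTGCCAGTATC
M-HTO-8: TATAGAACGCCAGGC

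The clear cells numbered 1716 and 1978 in the Het and Hom samples of naive blood, then 2074 and 1945 in those of metastasis-bearing blood. Where 4 values are given without names, they follow this order of samples. The CD4-like cells had median depths of 7053, 7343, 6456 and 7037.5 unique molecular identifiers (UMIs) per cell. CD8 T cells of the same samples were clear cells of any cluster with counts of both Cd8a and Cd8b1. They met the same Cd3 condition and had no count of Cd4, Ncr1 or Cd79a. They numbered 41, 114, 58 and 47 and were somewhat deeper at 8124, 8586, 8610 and 8740 UMIs. B cells, with counts of Cd79a and Cd79b and of no Cd3 gene, should lack most T cell genes and serve as a reference. They were shallower at 3829, 4394.5, 4017.5 and 3767 UMIs. Tyrobp, a natural killer marker used below, had a count in 67.07, 59.15, 52.36 and 64.33% of these B cells. In CD4-like cells it had a count in 25.45, 18.69, 27.91 and 14.29%. The B cell reference thus also carries RNA of other cell types and is no clean background for their genes. Levels are corrected counts per 10000, summed over the cells of a sample. The naive and the metastasis-bearing table were normalised separately by the authors, so every level set across these states is a description across 2 normalisations. The 3 tables of the series shared 845 to 970 barcodes pairwise, and such cells were left out.

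Among clear blood cells, CD4-like cells made up 3.21% in naive Het blood (2.42 to 4.15%) and 5.41% in naive Hom blood (4.45 to 6.5%). The share was 2.07% in metastasis-bearing Het blood (1.5 to 2.78%) and 2.88% in metastasis-bearing Hom blood (2.18 to 3.72%). Naive Hom blood was thus the highest, and its interval did not overlap those of the other 3 samples. The higher share was not particular to the CD4-like cells, because CD8 cells also reached 5.76% in naive Hom blood against 2.39 to 2.8% elsewhere. The ratio of CD4-like to CD8 cells was 1.34, 0.939, 0.741 and 1.19, so it was lowest in metastasis-bearing Het blood. CD8 cells came from any cluster, but CD4-like cells from the T cell cluster only. Of the cells that the antibodies call CD4 T cells, the CD4-like rule kept 77.3 and 71.1% in naive blood. In metastasis-bearing blood it kept 54.8 and 56.3%, so shares and ratios set across states also depend on the rule.

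The values at the edge of the rule were as follows. Of the 261 cells, 51, 104, 41 and 51 had counts of all 3 Cd3 genes, and 4, 3, 2 and 5 had counts of 2. Cells with exactly 1 Cd8 count, which lay just outside, numbered 3, 15, 9 and 6. The lowest hashtag share of any CD4-like cell was 0.905, far above the minimum of 0.5.

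Surface antibodies placed most, but not all, of the CD4-like cells in the gate of CD4 T cells, and none in the gate of CD8 T cells. The CD4 gate held 51 of 55 cells in naive Het blood (92.7%, 82.4 to 98%), 91 of 107 in naive Hom blood (85.1%, 76.9 to 91.2%), 34 of 43 in metastasis-bearing Het blood (79.1%, 64 to 90%) and 36 of 56 in metastasis-bearing Hom blood (64.3%, 50.4 to 76.6%). Over all samples this was 212 of 261 cells, with 0 of 261 in the CD8 gate, which allows a share of up to 1.15%. The share in the CD4 gate was highest in naive Het and lowest in metastasis-bearing Hom blood, and the intervals of these 2 samples did not overlap. No cell lay in the gate of B220-positive cells. By the same gates, 39 of 41, 81 of 114, 58 of 58 and 33 of 47 CD8 cells were in the CD8 gate and none was in the CD4 gate.

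**Figure D1:**
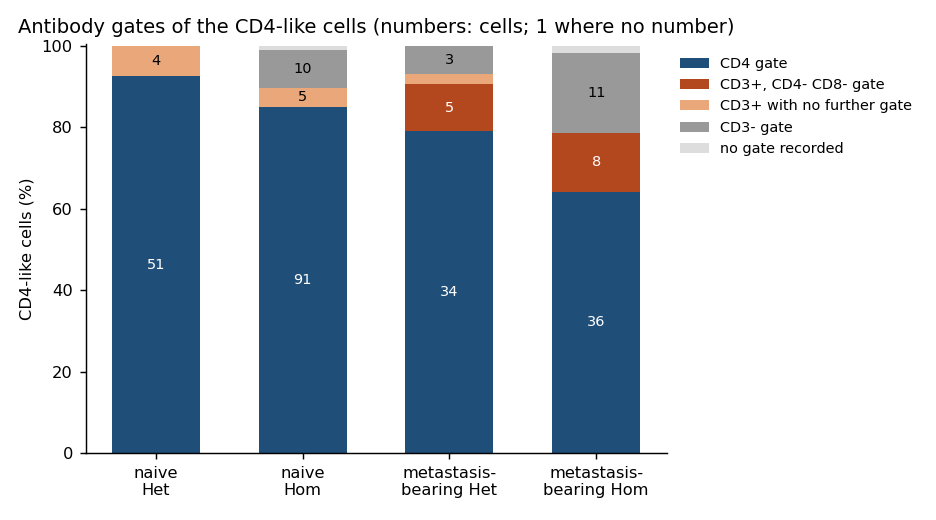
Stacked bars give the percentage of CD4-like cells of each blood sample (horizontal axis) in each surface antibody gate, with the number of cells in the bars. The CD4 gate (dark blue) held from 51 of 55 cells in naive Het blood to 36 of 56 in metastasis-bearing Hom blood, where 8 cells were CD4- CD8- and 11 were in the CD3- gate.

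The 49 cells outside the CD4 gate were of several kinds. A gate of CD3-positive cells lacking both CD4 and CD8 held 5 cells of the Het and 8 of the Hom sample of metastasis-bearing blood, and it was recorded only in the metastasis-bearing table. Cells gated as CD3-positive with no further gate numbered 4, 5, 1 and 0. The remaining cells fell in the CD3-negative gate, 0, 10, 3 and 11 of them, or, for 1 cell of each Hom sample, had no gate. Within each state, cells with Cd3 RNA in the CD3-negative gate were thus more frequent in the Hom than in the Het sample. Across states, naive Hom at 9.35% (4.57 to 16.5%) was close to metastasis-bearing Het at 6.98% (1.46 to 19.1%). The CD8 cells also had more in Hom within each state, with 1 of 41, 32 of 114, 0 of 58 and 14 of 47. The median number of antibody counts of the CD3-negative CD4-like cells was 1435.5 in naive Hom blood, against 2217 for those in the CD4 gate. In metastasis-bearing Hom blood these medians were 1879 and 2061.5. The CD3-negative CD8 cells had more antibody counts than those in the CD8 gate, 2194.5 against 1998 and 2086.5 against 1836 in the naive and the metastasis-bearing Hom sample. The part of staining in these gates was not tested.

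The rule also missed cells that the antibodies call CD4 T cells. The CD4 gate held 66, 128, 62 and 64 clear cells, of which 77.3, 71.1, 54.8 and 56.3% met the RNA rule. Most of the others lay in another cluster (10, 19, 12 and 15 cells) or carried a Cd8 count (2, 13, 7 and 8 cells).

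Part of the cells outside the CD4 gate carried gamma delta T cell receptor RNA. Counting a cell as gamma delta type when at least 2 of the 4 constant region genes Trdc, Tcrg-C1, Tcrg-C2 and Tcrg-C4 had a count, 1 of 55, 7 of 107, 4 of 43 and 13 of 56 CD4-like cells were of this type. Of these 25 cells, 24 lay among the 49 cells outside the CD4 gate and 1 among the 212 cells inside it. In the CD4- CD8- gate 10 of 13 cells were gamma delta type, against 5 of 10 in the CD3-only gate and 8 of 24 in the CD3-negative gate. None of the 261 cells had both a Cd4 count and the gamma delta type.

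The RNA therefore goes against the label for this minority. Trdc, the constant region of the delta chain (chr14:54142851-54146108, GRCm38.p6), was at 0.605, 1.47, 1.15 and 3.64 per 10000, from 3, 8, 4 and 14 cells. Within the CD4 gate it was at 0.115, 0.0427, 0.241 and 0.845, where 12 of the 15 counts of metastasis-bearing Hom blood came from 1 cell. In CD8 cells Trdc was found in 1 cell of naive Hom blood only. Cd163l1, a scavenger receptor of interleukin-17-producing gamma delta cells in mice, was at 0, 0.145, 0.0478 and 1.55, and 5 of its 6 positive cells in metastasis-bearing Hom blood lay outside the CD4 gate. Sox13, a transcription factor of that lineage, was found in 5 cells of metastasis-bearing Hom blood and in none of the other samples. Metastasis-bearing Hom blood thus stood highest for the gamma delta list as a whole, whose summed level was 0.819, 2.62, 2.54 and 9.48, and whose in-gate sum was 0.154, 0.064, 0.361 and 1.58. The last in-gate sum rested on 1 cell, without which it was 0.174, against 0.187 in metastasis-bearing Het blood without its top cell.

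**Figure D2:**
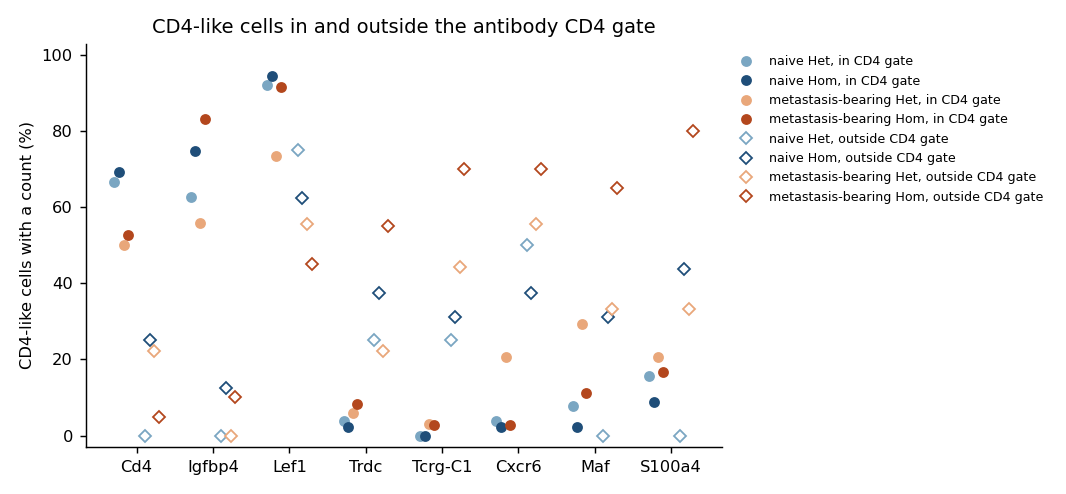
Points give the percentage of CD4-like cells with a count of each gene (horizontal axis) per blood sample, filled for cells in the CD4 gate (51, 91, 34 and 36 cells) and open for cells outside it (4, 16, 9 and 20 cells). Cd4 and Igfbp4 were more frequent inside the gate, and Trdc, Tcrg-C1 and Cxcr6 more frequent outside it, in every sample.

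The defining markers differed in how well they set these cells apart. Cd4 itself (chr6:124864693-124888247), which the rule did not name, had a count in 34 of 55, 67 of 107, 19 of 43 and 20 of 56 cells, or 61.8, 62.6, 44.2 and 35.7%. B cells had a Cd4 count in 0.136 to 0.362% of cells, and the CD8 cells have none by definition. Its level was 1.71, 1.66, 1.34 and 1.19 per 10000. When each cell was thinned to 1000 corrected counts, the share with a Cd4 count was 16.4, 15.9, 6.98 and 8.93%. The direction between states was kept, but these shares rest on few cells and have no interval here. Median corrected counts per cell were already similar before thinning, at 5242, 5245, 5006 and 5079.5, so thinning says little about raw depth. Inside the CD4 gate a Cd4 count was found in 34 of 51, 63 of 91, 17 of 34 and 19 of 36 cells, and outside it in 7 of 49. The in-gate level was 1.84, 1.81, 1.45 and 1.8, so metastasis-bearing Hom blood differed from the naive samples over all CD4-like cells but hardly within the gate.

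Lef1 (chr3:131110297-131224357), a transcription factor of naive T cells, was at 6.91 and 7.51 in naive blood and at 3.83 and 5.05 in metastasis-bearing blood. It had a count in 90.9, 89.7, 69.8 and 75% of the CD4-like cells. CD8 cells changed less, at 5.45, 5.87, 5.16 and 4.78 per 10000. Within the CD4 gate Lef1 was at 7.22, 8.51, 4.04 and 7.04, so that only metastasis-bearing Het blood was far below the rest there.

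Igfbp4 (chr11:99040005-99052655), which encodes a binding protein for insulin-like growth factors, was nearly level over the samples at 4.95, 5.16, 5.5 and 5.08. CD8 cells had 1.94, 1.95, 2.26 and 2.35, lower in all 4 samples, although the share of cells with a count overlapped between the 2 populations. Outside the CD4 gate an Igfbp4 count was found in 2 cells of each Hom sample and in no cell of the Het samples. Tcf7 (chr11:52246527-52283383), the partner of Lef1, was at 5.55, 4.9, 5.64 and 4 and did not separate CD4-like from CD8 cells, which had 5.16, 4.32, 4.89 and 5.54.

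**Figure D3:**
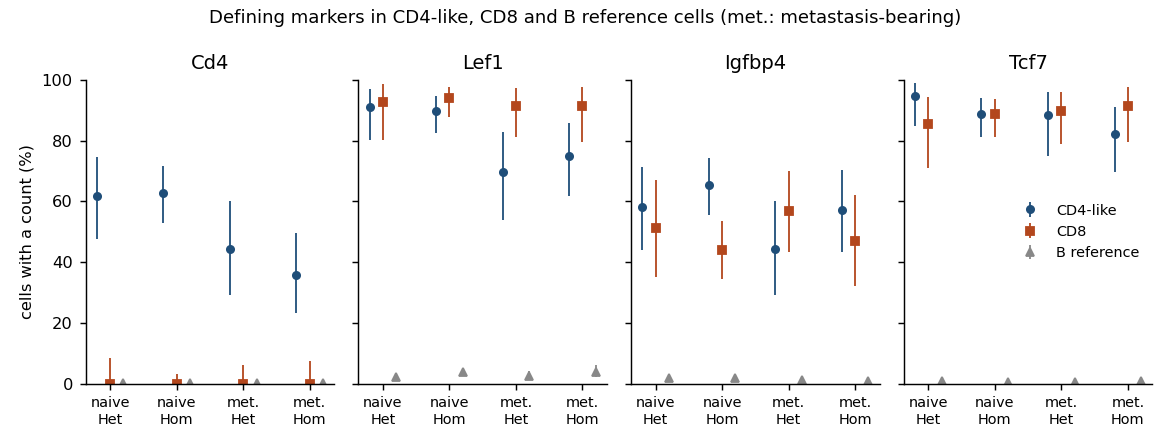
Each panel gives the percentage of cells with a count of a marker in CD4-like, CD8 and B reference cells of the 4 blood samples, with exact 95% intervals for counting error. Cd4 separated the CD4-like cells, from 35.7 to 62.6%, from the B reference near 0, while Lef1, Igfbp4 and Tcf7 were found in both T cell populations.

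The comparison with CD8 cells describes 2 populations that were chosen by genes and clusters of the same cells, so it carries no test. Of 7133 genes with at least 20 corrected counts in the higher population, 89 were past 1.5-fold higher in CD4-like cells in all 4 samples (1.25%) and 88 were past 1.5-fold lower in all 4 (1.23%). Genes of the helper lineage were among the higher ones. Zbtb7b, the transcription factor ThPOK that commits thymocytes to the CD4 lineage, was at 0.285, 0.452, 0.526 and 0.361 in CD4-like cells and at 0.0947, 0, 0.0342 and 0 in CD8 cells. Cd40lg, the helper ligand that activates B cells, was at 0.783, 0.633, 0.574 and 0.324, against at most 0.0171 in CD8 cells. The helper lineage list has 12 genes, of which 11 were compared and 5 were past 1.5-fold higher in all 4 samples. One of the 5 is Cd4, which the choice of CD8 cells sets to 0, and the other 4 were Zbtb7b, Cd40lg, Runx1 and St8sia6. None was past 1.5-fold lower in all 4.

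Other genes separated the populations as clearly. Pdlim4, a PDZ and LIM domain protein, was at 0.57, 0.85, 1 and 0.721 and was at 0 in 3 of the 4 CD8 samples. Ly6c1, a surface protein of the Ly6 family, was at 0.748, 1.01, 1.29 and 0.685, against 0 to 0.0684 in CD8 cells. Its neighbour Ly6c2 went the other way, at 1.07, 0.597, 2.49 and 1.59 against 3.6, 4.54, 4.41 and 4.62, so the 2 near-identical genes marked opposite populations, and reads shared between them could blur both. St8sia6, a sialyltransferase, was at 0.463, 0.669, 0.622 and 0.324, against at most 0.0342. Capg, an actin-capping protein, was at 0.961, 0.796, 1.77 and 2.42 against 0.0947 to 0.205, and it is also abundant in the B cell reference.

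Most genes of regulatory T cells that could be compared were higher. Foxp3 had a count in 2, 4, 2 and 3 CD4-like cells, 11 of 261, and in none of the 260 CD8 cells. Ctla4, an inhibitory receptor, was at 0.107, 0.108, 0.143 and 0.324 against at most 0.042, and Izumo1r, the folate receptor 4 of regulatory cells, at 0.57, 0.615, 0.718 and 0.469 against at most 0.237. Of the 15 genes of this list, 8 had enough counts and 5 were past 1.5-fold higher in all 4 samples, beside 1.25% of all genes. Capg and Ikzf2 were among the 5, and the Ikzf2-positive cells of metastasis-bearing Hom blood lay mostly outside the CD4 gate. Ccr6, Tnfrsf18 and Itgae were compared and did not pass.

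Cytotoxic genes were lower. Nkg7, a cytotoxic granule protein, was at 1.25, 1.34, 1.67 and 2.09 in CD4-like cells and at 7.48, 8.28, 6.25 and 8.77 in CD8 cells. Most of the Nkg7 of CD4-like cells lay outside the CD4 gate, within which it was at 0.23, 0.256, 0.783 and 0.788. Klrd1, the CD94 chain of natural killer receptors, was at 0.961, 0.615, 1.24 and 0.757 against 2.7, 2.73, 3.79 and 3.44. Of 11 cytotoxic genes compared, 6 were past 1.5-fold lower in all 4 samples, beside 1.23% of all genes, with a median log2 ratio of -1.41. Runx3, the transcription factor that commits cells to the CD8 lineage, was also lower, at 0.712, 0.651, 0.765 and 1.37 against 2.08, 1.83, 2.26 and 2.27.

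The genes furthest below CD8 cells, after Cd8a and Cd8b1 which the rule sets to 0, were Lcn4, Slc6a19, Fam241a, Racgap1, Kcna2 and Ccr9. Lcn4, a lipocalin, was at 0, 0.0724, 0 and 0.0721 against 0.71, 0.683, 0.718 and 0.545. Slc6a19, a neutral amino acid transporter, had no count in any CD4-like cell and was at 0.426, 0.171, 0.102 and 0.294 in CD8 cells. Ccr9, the gut-homing chemokine receptor, was at 0.214, 0.163, 0.0478 and 0.036 against 1.28, 1.31, 0.376 and 0.545. Both populations had less Ccr9 in the metastasis-bearing than in the naive samples. The T cell receptor complex list, which holds no gamma or delta chain, did not separate them. None of its 15 genes was past 1.5-fold the same way in all 4 samples. Gamma delta receptor genes, which were kept out of the ranking, did separate them. Trdc, Tcrg-C1, Tcrg-C4, Trgv2 and Tcrg-C2 were past 1.5-fold higher in CD4-like cells in all 4 samples. Their median log2 ratios were 4.87, 3.66, 2.84, 2.07 and 1.6.

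**Figure D4:**
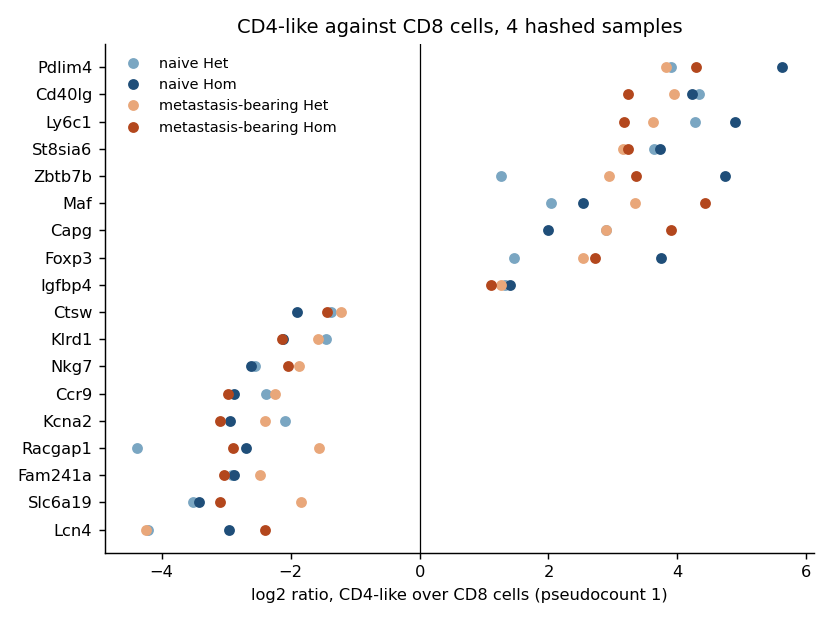
Points give the log2 ratio of the summed corrected counts of CD4-like over CD8 cells, 1 per blood sample, for named genes (vertical axis). All points of the genes from Pdlim4 to Igfbp4 lie above 0, and all points of the genes from Ctsw to Lcn4 lie below it.

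Metastasis-bearing blood was compared with naive blood separately in Het and in Hom samples. In the Het samples 174 of 1968 genes were past 1.5-fold higher (8.84%) and 193 past 1.5-fold lower (9.81%). In the Hom samples 308 of 3865 genes were higher (7.97%) and 381 lower (9.86%). The 2 comparisons share no sample, and 46 of 1964 genes were past 1.5-fold higher in both (2.34%) and 23 lower in both (1.17%).

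Memory and effector genes were the list that stood highest in metastasis-bearing blood. Of its 22 genes, 16 were compared in Het blood, where 9 were past 1.5-fold higher and none lower, with a median log2 ratio of 0.717 beside -0.031 for all genes. In Hom blood 17 of 18 were past 1.5-fold higher and none lower, with a median of 1.56 beside -0.005. S100a4, a calcium-binding protein of memory cells, was at 4.16 and 1.88 per 10000 in naive Het and Hom blood and at 6.93 and 12.4 in metastasis-bearing Het and Hom blood. It was found in 8 of 55, 15 of 107, 10 of 43 and 22 of 56 cells, and in 8.57, 8.24, 26.9 and 35.5% of B cells, so the share also differed between the states in the reference. Itgb1, the beta 1 integrin chain, was at 1.03 and 0.977 in naive and at 2.44 and 2.7 in metastasis-bearing blood. B cells did not show this, with 0.713, 0.392, 0.542 and 0.58 for Itgb1.

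Cxcr6, a homing receptor of tissue-resident T cells, was at 0.249 and 0.307 in naive and at 2.01 and 1.95 in metastasis-bearing blood. Its cells numbered 4 of 55, 8 of 107, 12 of 43 and 15 of 56, against at most 0.362% of B cells. The ratio in Het blood was 7.07-fold (3.59 to 21.3). Maf, a transcription factor of effector T cells, was at 0.32, 0.579, 1.05 and 1.69, and Il2rb, the interleukin-2 receptor beta chain, at 0.534, 0.488, 1.15 and 1.87. For each of these 3 genes both metastasis-bearing samples were above both naive samples. CD8 cells did not show this order for Cxcr6, with 0.852, 1.14, 0.752 and 0.839, or for Maf, with 0.0474, 0.0854, 0.0684 and 0.042.

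Part of the difference lay outside the CD4 gate, where 27 of 49 cells had a Cxcr6 count. Within the gate the list was still higher in metastasis-bearing blood, but by less in Hom blood. There, 5 of 13 genes were past 1.5-fold higher in Het blood (background 6.41% higher and 10.8% lower of 1746 genes) and 7 of 11 in Hom blood (background 5.48% higher and 13.8% lower of 3228 genes). The in-gate medians were 0.552 and 0.699, and no gene of the list was lower in either. In-gate Cxcr6 was at 0.192, 0.107, 2.11 and 0.225, so that only metastasis-bearing Het blood stood out, with 7 of 34 positive cells. The 3 innate-like T cell genes followed the same order within the gate, with a summed level of 0.154, 0.0427, 1.69 and 0.225. Among them Klrb1c had a count in 2 of 34 cells of metastasis-bearing Het blood and in none of the other samples, and Zbtb16 was at 0 there. Their part in the result was not tested.

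Some genes of naive, recirculating cells were lower in metastasis-bearing blood. All 20 genes of the list were compared, and 4 in Het and 6 in Hom blood were past 1.5-fold lower, beside 9.81 and 9.86% of all genes, while 1 was higher in each. The ratio was below 0 for 15 and 16 genes, with medians of -0.32 and -0.34 beside -0.031 and -0.005 for all genes. Ccr7, the lymph node homing receptor, was at 4.73 and 3.76 in naive and at 2.87 and 2.23 in metastasis-bearing blood. Actn1, an actin cross-linker, was at 2.99 and 2.57 against 1.72 and 1.59. Cd28, the co-stimulatory receptor, which belongs to the T cell receptor list, was at 3.13 and 3.18 against 1.67 and 1.66. For these 3 genes both naive samples were above both metastasis-bearing samples, while CD8 cells had similar Ccr7 throughout (3.03, 3.79, 3.21 and 3.9). Within the CD4 gate the list had medians of -0.291 in Het and -0.079 in Hom blood.

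One member of the naive list went the other way. Il7r, the interleukin-7 receptor that sustains resting T cells, was at 7.19 and 6.69 in naive and at 12 and 13.2 in metastasis-bearing blood. Within the CD4 gate it was at 6.99, 7.11, 11.8 and 12.6, and in CD8 cells at 7.67, 7.41, 11.6 and 11.5, while B cells had at most 0.113. The higher Il7r level was therefore seen in both T cell populations, in both genotypes and within the gate.

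Of the glucocorticoid-induced genes, a list that includes Il7r, 4 of 7 in Het and 4 of 10 in Hom blood were past 1.5-fold higher in metastasis-bearing blood, beside 8.84 and 7.97% of all genes, with none lower. The others of the list did not pass. Tsc22d3, the glucocorticoid-induced leucine zipper, was at 2.42 and 2.3 against 3.73 and 3.86, and CD8 and B cells moved alike, B cells from 4.14 and 3.84 to 5.7 and 7.27. Of the heat shock genes, 2 of 7 in Het and 2 of 8 in Hom blood were past 1.5-fold lower, beside 9.81 and 9.86% of all genes, and none was higher, with list medians of -0.45 and -0.241. Dnaja1, a co-chaperone of Hsp70, was at 4.09, 3.8, 2.01 and 2.42 in CD4-like cells and at 2.68, 2.87, 1.5 and 1.67 in B cells. These genes differed between states in the reference too, and the 2 tables were normalised separately.

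The genes named for the strongest counting evidence were mostly of other kinds. In Het blood the higher ones beside Cxcr6 were Bbc3, the apoptosis activator Puma (26 against 4 counts), Tmem176a, Klrk1, the NKG2D receptor, and Serinc3. Lower in Het blood were S100a8, S100a9, Rasa2, Malat1 and Wfdc17, of which Wfdc17 turned to a log2 ratio of 0.32 with all deposited cells. In Hom blood the higher ones were Lgals3, the lectin galectin-3 (82 against 12 counts), Acsbg1, Serpinb1a, Mgp and Tmem176a. Of these, Mgp rested on 1 cell, which held 31 of its 33 counts, and Tmem176a was found in 1 of 36 in-gate cells of metastasis-bearing Hom blood. Lower in Hom blood were Mettl3, the RNA methyltransferase (1 against 27 counts), Hsdl1, Art2b, Otud1 and Ranbp9. Art2b, an ADP-ribosyltransferase of T cells, was at 0.32, 0.452, 0 and 0.0721, and CD8 cells had the same order of states with 0.379, 0.751, 0.171 and 0.126.

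Hom and Het blood were compared within each state, and therefore within a single table. In naive blood 466 of 3834 genes were past 1.5-fold higher in Hom (12.2%) and 128 lower (3.34%). In metastasis-bearing blood 262 of 2100 were higher (12.5%) and 85 lower (4.05%). The count minimum lets in more genes that are low in the sample with fewer counts, and the naive Hom sample had 552769 corrected counts in CD4-like cells against 280948 in naive Het. The part of this in the excess of higher genes was not tested. A minimum of 50 counts gave 66 higher and 21 lower in naive, and 36 and 13 in metastasis-bearing blood. That minimum is also set in the higher group, so it does not remove the imbalance. Within the CD4 gate of naive blood 335 of 3243 genes were higher in Hom (10.3%) and 122 lower (3.76%). In the gate of metastasis-bearing blood 74 of 1212 were higher (6.11%) and 116 lower (9.57%), so the excess was not seen there. The 2 comparisons share no sample, and 20 of 2065 genes were past 1.5-fold higher in both (0.969%) and 7 lower in both (0.339%). Another 21 genes passed in opposite directions, 6 higher and 15 lower in naive Hom blood, and 50.46% of all genes compared had the same sign in both states.

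The memory and effector list pointed in opposite directions in the 2 states. In naive blood 1 of 16 genes was past 1.5-fold higher in Hom and 5 were lower, with a median log2 ratio of -0.363 beside 0.071 for all genes. In metastasis-bearing blood 10 of 18 were higher and 2 lower, with a median of 0.676 beside 0.075. S100a6, a calcium-binding protein, had a level of 5.52 in naive Het and 2.73 in naive Hom blood, against 7.94 and 19.3 in those of metastasis-bearing blood. Lgals1, the lectin galectin-1, was at 4.77, 3.04, 5.74 and 12.5. Metastasis-bearing Hom blood was thus the highest of the 4 for both genes, and naive Hom blood the lowest.

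Within the CD4 gate this opposition was gone. In naive blood 9 of 12 genes of the list were past 1.5-fold lower in Hom and none higher, with a median of -1.07 (background 10.3% higher and 3.76% lower of 3243 genes). In metastasis-bearing blood 9 of 13 were lower and none higher past 1.5-fold, with a median of -0.82 (background 6.11% higher and 9.57% lower of 1212 genes). In-gate S100a6 was at 5.49 in naive Het and 0.533 in naive Hom, and at 8.07 and 4.56 in the same samples of metastasis-bearing blood. In-gate S100a4 was at 4.49, 0.491, 6.63 and 3.72. Hom was below Het in both states for both genes. The 2 settings thus gave opposite directions for metastasis-bearing blood, and the difference between states was not tested.

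These in-gate values rest on few cells. Cells with 10 or more counts of S100a4, S100a6 and Lgals1 together, called memory type here, were 6 of 51 in the Het and 1 of 91 in the Hom sample of naive blood, and 7 of 34 and 3 of 36 in those of metastasis-bearing blood. Outside the gate they were 1 of 4, 6 of 16, 2 of 9 and 16 of 20. The largest single group of memory-type cells was thus the 16 cells of metastasis-bearing Hom blood outside the CD4 gate, of which 9 were gamma delta type. Of all 261 cells, 42 reached 10 counts, 9 of them with 10 to 19, and 12 had 5 to 9, just under the minimum.

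**Figure D5:**
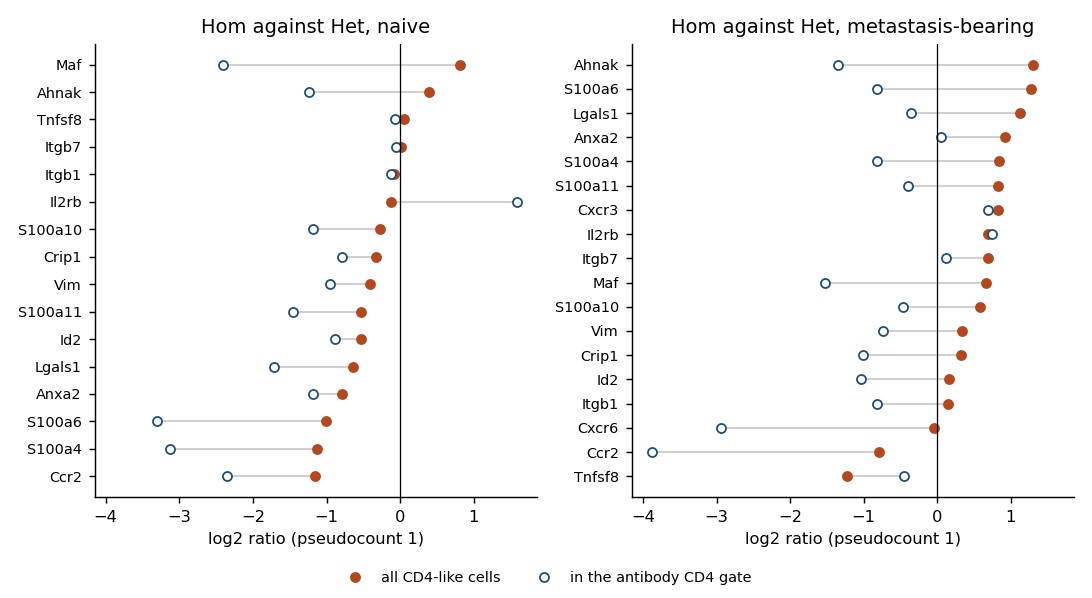
Each row is a gene of the memory and effector list, with its log2 ratio of Hom over Het over all CD4-like cells (filled) and within the antibody CD4 gate (open), in naive blood (left) and metastasis-bearing blood (right). In metastasis-bearing blood the filled points lie mostly above 0 (median 0.676) and the open points mostly below it (median -0.82).

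Ccr2 and Cx3cr1 are the 2 genes of the study's genotypes, but the gene meant by Hom in blood is not given, so their levels do not check the labels. Ccr2, which draws monocytes and effector T cells to inflamed tissue, was at 0.712 in naive Het and 0.307 in naive Hom blood, with 15 of the 20 counts of the former in 1 cell. In metastasis-bearing blood it was at 1.72 in Het and 0.973 in Hom. In-gate Ccr2 had a count there in 7 of 34 cells of the Het and 1 of 36 of the Hom sample. The B cell reference had a Ccr2 count in 5.28 to 6.78% of cells. It also carries RNA of other cell types, so this is not a clean background. Cx3cr1, the fractalkine receptor, was at 0.214, 0.434, 0.191 and 0.252, found in 10.9, 17.8, 9.3 and 10.7% of cells against 8.31 to 12.9% of B cells. Its share in CD4-like cells lay within the range of the B cell reference in 3 samples and only slightly above it in naive Hom blood. Cxcr3, a receptor of type 1 T cells, was at 0.32, 0.127, 0.43 and 0.793.

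The genes with the strongest counting evidence between Hom and Het in metastasis-bearing blood included genes found mainly outside the gate, such as Cd163l1. Higher in Hom were Cd163l1 (43 against 1 counts), Mgp, Blk, the B lymphoid kinase also used by gamma delta cells (20 against 0 counts), Actn2 and S100a6. S100a6 was 2.42-fold higher in Hom (2.04 to 2.91) over all CD4-like cells and 1.76-fold lower within the gate. That interval treats all counts as independent and leaves out the spread between cells, so it is too narrow for a gene held by few cells. Lower in Hom were Lyz2, the monocyte lysozyme, with 38 of the 67 counts of the Het sample in 1 cell, and S100a9, Ebna1bp2, Asxl2 and Fyb. Fyb, an adaptor of T cell adhesion, was the T cell gene among them, 1.7-fold lower over all cells (73 against 94 counts) and 1.34-fold lower within the gate.

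In naive blood the lower genes in Hom were led by neutrophil genes. S100a8 had 241 counts in naive Het and 80 in naive Hom cells, with 105 of the former in 1 cell, and S100a9 had 356 and 156, with 163 in 1 cell. Wfdc17, Hmgb2 and Ifitm2 were also lower, although Wfdc17 turned to a log2 ratio of 0.10 with all deposited cells. The summed level of 8 neutrophil markers was 23.8, 4.94, 6.31 and 4.36, and 13.3 in naive Het blood without its top cell. All 8 neutrophil markers had counts in both naive samples. Their part in the lower values of naive Hom blood was not tested beyond leaving out that cell. Higher in Hom were Zfp407, Map2k2, a kinase of the MAP kinase pathway (58 against 8 counts), Ppp1r7, Hist1h1c and Rhot1, and each was also higher within the CD4 gate.

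Innate-like T cell genes differed more between the samples than natural killer markers did. The 3 genes of the innate-like list, Zbtb16, Klrb1c and Klrk1, summed to 0.534, 0.163, 2.39 and 1.51 per 10000, and the 7 natural killer markers, with Ncr1 at 0 by the rule, to 1.92, 0.85, 2.1 and 1.59. Most of the latter was Tyrobp, at 1.07, 0.434, 0.909 and 0.361, and Fcer1g, at 0.605, 0.308, 0.67 and 0.721. The B cell reference carried both at higher levels. CD8 cells had natural killer sums of 1.56, 2.03, 3.18 and 1.68. The 9 B cell markers summed to 4.49, 4.23, 4.69 and 4 per 10000, with Cd79a at 0 by the rule. Erythroid genes summed to 36.1 in naive Hom blood, of which all but 0.895 came from 1 cell, and to 0.854, 1.34 and 1.01 elsewhere. Platelet genes stayed at or below 0.478, and monocyte genes lay between 6.21 and 10, a level that CD8 cells also reached.

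Several gene groups gave little to compare. Helper subset genes were nearly absent: of 14 such genes only Gata3 reached the count minimum in any of the 4 comparisons between blood samples, at 0.57, 0.687, 0.861 and 1.04. Tbx21 had a count in 2, 2, 3 and 0 cells, and Ifng in 1, 1, 0 and 0. Mki67, a marker of dividing cells, had a count in 2, 1, 1 and 2 cells. None of the T cell receptor complex genes compared, 15 in naive and 14 in metastasis-bearing blood, was past 1.5-fold between Hom and Het over all CD4-like cells. Ribosomal protein genes had medians between -0.092 and -0.033 in the 4 comparisons, so their level differed little.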

How the data were processed

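Levels come from the 2 blood tables, deposited by the authors as natural log values, ln(1 + SCTransform-corrected count), with each table normalised separately. The deposited metadata give raw UMI counts, clusters, antibody gates and the hashtag classification per cell. Alignment used Cell Ranger 3.1 and mm10, per the submitters' processing notes. The members and gene lists were chosen with earlier results of these data known.

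Corrected counts were rebuilt as exp(value) - 1, which deviated from whole numbers by at most 1.18e-11, and were summed per sample and cell set. Log2 ratios used totals scaled to their mean, a pseudocount of 1 and genes with at least 20 counts in the higher group, and a gene was counted past 1.5-fold. Intervals for ratios are exact conditional binomial and for shares Clopper-Pearson, at 95%. Those for ratios use summed counts and leave out the spread between cells. A gene with most of its counts in 1 cell can therefore rank high by them. No doublets were called beyond the hashtag and shared-barcode filters. The ratio, its interval and the fold rule were tested on simulated counts with counting error only. The simulation had no spread between cells or animals, so it does not cover that spread in these data. Named genes were the 5 higher and 5 lower genes per comparison whose interval lay farthest from 1 (8 of each by median ratio for CD8), plus markers and list members, with Gm and Rik genes, haemoglobins, antigen receptor genes, mitochondrial transcripts and ribosomal proteins kept out of the ranking. Runx3 was chosen after its values were seen. Coordinates are those of the RefSeq annotation of GRCm38.p6, where 322 of 326 symbols matched. Alternatives changed the cells kept, the thinning, the pseudocount and the count filter. The percentage of mitochondrial counts was 0 in every cell of the metadata and was not used. Python 3.11.15, numpy 2.4.6, pandas 2.3.3 and scipy 1.17.1 were used. Some results are not reported here.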

Additional observations from a re-analysis of the deposited data

Results flagged for a closer look

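The following values turned direction between 2 comparisons of the same kind. With 1 hashed sample per group the difference was not tested for any of them.

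Over all CD4-like cells, 15 genes were past 1.5-fold lower in Hom than in Het in naive blood and past 1.5-fold higher in metastasis-bearing blood. Of these, 5 were among the named genes and list members. Their log2 ratios were -1.14 and 0.83 for S100a4, -1.01 and 1.28 for S100a6, -0.65 and 1.12 for Lgals1, -0.78 and 0.91 for Anxa2, a membrane-binding annexin, and -0.71 and 1.36 for Ikzf2, the transcription factor Helios. The memory and effector list, which holds the first 4 of these genes, had medians of -0.363 and 0.676. Outside the CD4 gate an Ikzf2 count was found in 14 of 20 cells of metastasis-bearing Hom blood, against 3 of 36 inside it.

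Bbc3 went the other way, with log2 ratios of 1.21 in naive and -0.97 in metastasis-bearing blood. It was found in 4 of 55, 18 of 107, 17 of 43 and 14 of 56 cells.

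Ebna1bp2, a nucleolar protein of ribosome assembly, had a log2 ratio of metastasis-bearing over naive blood of 0.99 in Het and -1.07 in Hom samples. It had 20 counts in metastasis-bearing Het and 9 in metastasis-bearing Hom blood.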

How the results depend on the processing

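With 1 hashed sample per group, no setting gives a p-value, and depth limits genes under 20 counts. No paired analysis was possible because each blood group was 1 hashed sample. Of 687 list medians under other settings, 672 moved little, 11 moved and 4 turned. Of 688 named-gene values, 600 moved little, 83 moved and 5 turned. Named-gene ratios between blood samples were judged by the main interval. List medians and ratios against CD8 cells were called moved only when they shifted by 1.5-fold or more. They were called turned only when the main value was itself past 1.5-fold. Most list medians were smaller than that, so they could change sign and still count as moving little. The causes were not tested unless a setting removes the cells or genes named.

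With only cells in the antibody CD4 gate (chosen after seeing the data), the memory list was at -1.071 for Hom against Het in naive and -0.82 in metastasis-bearing blood, and at 0.699 for metastasis-bearing against naive Hom; S100a6 turned to -0.815 and the regulatory T list in Hom to -0.175. Metastasis-bearing Hom blood then had 1.851% members, 52.78% with Cd4 and a Cd4 level of 1.802. Genes higher were 74 (Hom, metastasis-bearing), 112 (metastasis-bearing, Het) and 177 (metastasis-bearing, Hom). Leaving out cells with Trdc, Tcrg-C1, Tcrg-C2, Klrb1c or Zbtb16 gave a memory median of -0.034 for Hom against Het in metastasis-bearing blood, a chemokine receptor median of -0.16 in Hom, 1.954% members, 50% with Cd4 and a Cd4 level of 1.714 there, and 116, 112 and 192 higher genes. Requiring a Cd4 count gave shares of 1.981, 3.387, 0.916 and 1.028%, memory medians of 0.02 and 0.89, S100a6 at -1.072, Tmem176a at -0.568, 81 higher and 44 lower genes for Hom in metastasis-bearing blood, and 46 and 184 higher for metastasis-bearing Het and Hom.

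With all deposited cells the naive Hom share was 4.368%, Wfdc17 turned to 0.096 for Hom against Het in naive blood and to 0.315 for metastasis-bearing against naive Het, and 163 genes were lower in metastasis-bearing Hom and 303 higher in metastasis-bearing Het. In the order Hom naive, Hom metastasis-bearing, metastasis-bearing Het and Hom, and CD8, higher and lower counts after thinning were 75 and 27, 30 and 18, 20 and 28, 38 and 68, and 32 and 21, with Cd4 shares of 16.36, 15.89, 6.98 and 8.93% and a level of 0.698 in metastasis-bearing Het. A filter of 50 counts gave 66 and 21, 36 and 13, 25 and 25, 77 and 75, and 54 and 39. No filter gave 3318 and 1949, 3112 and 2450, 3004 and 2564, 2699 and 2876, and 138 higher for CD8. A pseudocount of 3 gave 52 lower for CD8.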

Other observations

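Of 15 interferon-induced genes compared between Hom and Het in metastasis-bearing blood, 2 were past 1.5-fold higher and 3 lower, beside 12.5 and 4.05% of all genes. The list had median log2 ratios of -0.143 and -0.015 for Hom against Het in naive and metastasis-bearing blood, and of -0.089 and -0.174 for metastasis-bearing against naive blood in Het and Hom samples. Bst2, the interferon-induced tetherin, was at 1.03, 1.03, 1.05 and 0.505 per 10000 in naive Het and Hom and then metastasis-bearing Het and Hom blood, so the last sample was the lowest. MHC class I genes were lower in Hom for 11 of 13 genes in metastasis-bearing blood, but none was past 1.5-fold. The log2 ratios of these 11 ran from -0.526 for H2-Q6 to -0.149 for Psmb9, beside a median of 0.075 for all genes. In naive blood the list went both ways, with H2-K1 at 0.199 and H2-T22 at -0.33.

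Malat1, a nuclear long noncoding RNA, was at 228, 205, 149 and 138 per 10000 in CD4-like cells, in the same order of samples. CD8 cells had 207, 179, 148 and 142, and B cells had 362, 292, 224 and 220, so all 3 populations had less Malat1 in both metastasis-bearing samples, across 2 separate normalisations. Bcl2, which protects lymphocytes from apoptosis, was at 3.17, 4.34, 5.36 and 3.79 in CD4-like cells and at 3.22, 4.78, 8.17 and 6 in CD8 cells. All 12 mitochondrial transcripts compared were higher in metastasis-bearing than in naive Het blood, with a median log2 ratio of 0.203 and none past 1.5-fold. In Hom blood mt-Atp8, mt-Nd4l and mt-Nd2 were lower, with log2 ratios of -0.276, -0.082 and -0.077, and the others were higher. These ratios are also set across 2 separate normalisations.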
